A study of Mus musculus with 2 samples.

Results

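In the neural stem cell libraries compared here, 123 genes were divided by a different transcript length in the siChd4 library and in the siSCR library. They were found from the deposited values alone. For each gene, TPM (a level corrected for transcript length and scaled to 1000000 per library) was divided by its estimated read count. The ratio of that quotient, siChd4 over siSCR, was then divided by its median over all genes that met the limits on level. Genes were selected on this ratio of measured values and kept when the result was above 1.2, a shorter length in siChd4, or below 0.833, a longer one. A mean TPM of at least 1 and values above 0 in both libraries were required, and 12872 of the 17359 genes of the table met this. The length was shorter in siChd4 for 76 genes (0.59% of 12872) and longer for 47 genes (0.365%). Because these values chose the genes, the shift itself, and every siChd4 to siSCR ratio built on the same TPM values and counts, is given as a description with no test.

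The siChd4 group is 1 library of mouse neural stem cells, labelled as a Chd4 knockdown, that were transfected with small interfering RNA (siRNA) against Chd4. The siSCR group is 1 library of the same cell type, labelled as control, that received a scrambled siRNA. Chd4 encodes a nucleosome remodelling ATPase that works within NuRD. The sources used here do not state the strain, age or passage of the cells, nor the siRNA dose and the time of harvest. With 1 library per group there is no spread between replicates, and each difference is one between this pair of libraries. In bulk RNA, fewer cells of a type and less RNA per cell cannot be told apart.

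The siChd4 library held 20072009 estimated counts and the siSCR library 19816811. Chd4 itself was at 203 TPM in siChd4, against 250 TPM in siSCR, and its length differed by a ratio of 1.0008, so it is not among the 123 genes. All 10 neural stem cell markers examined passed the limits on level, with a summed level of 13656 TPM in siChd4, against 11556 TPM in siSCR. Fabp7 (7004 TPM in siChd4, against 6105 TPM in siSCR) and Vim (4835 TPM in siChd4, against 3340 TPM in siSCR) carried the higher sum, while Slc1a3 had 878 TPM in siChd4, against 1254 TPM in siSCR, and Pax6, Sox1 and Msi1 were also lower in siChd4, none of these 6 past 1.5-fold on TPM + 1. The 6 neuron markers summed to 601 TPM in siChd4, against 455 TPM in siSCR, and 4 of them were past a 1.5-fold difference on TPM + 1 and higher in siChd4. Of 5 microglial markers, P2ry12 was at 36.1 TPM in siChd4, against 6.84 TPM in siSCR, while Aif1 and Cx3cr1 were at or below 0.31 TPM in both. The part of other cell types in the results below was not tested.

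A gene can make transcripts of different lengths by starting at another promoter, by including or skipping exons, or by ending at another cleavage and polyadenylation site. Programs that estimate expression spread reads over a gene's annotated transcripts and divide by the average length of those they find, weighted by abundance and shortened for fragment size. This average is the effective length. Brain tissue is known for long 3′ untranslated regions and for many exons used only in neurons. A change of effective length between libraries can therefore record a change of isoform, but it is an estimate that also moves when few reads are available or when reads fit several genes.

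For most genes the length hardly differed between the libraries. The ratio of effective lengths, siChd4 over siSCR, had a middle 50% between 0.995 and 1.002. It lay within 1% of the median for 69.1% of the 12872 genes and within 5% for 91.2%. Lengths in bases were obtained from the count, the TPM and the table's total, so their absolute scale is approximate. In 339 genes with a single annotated transcript and at least 20 TPM, the annotated length exceeded the effective length by a median of 53.7 bases in siChd4 and 54.0 bases in siSCR.

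**Figure D1:**
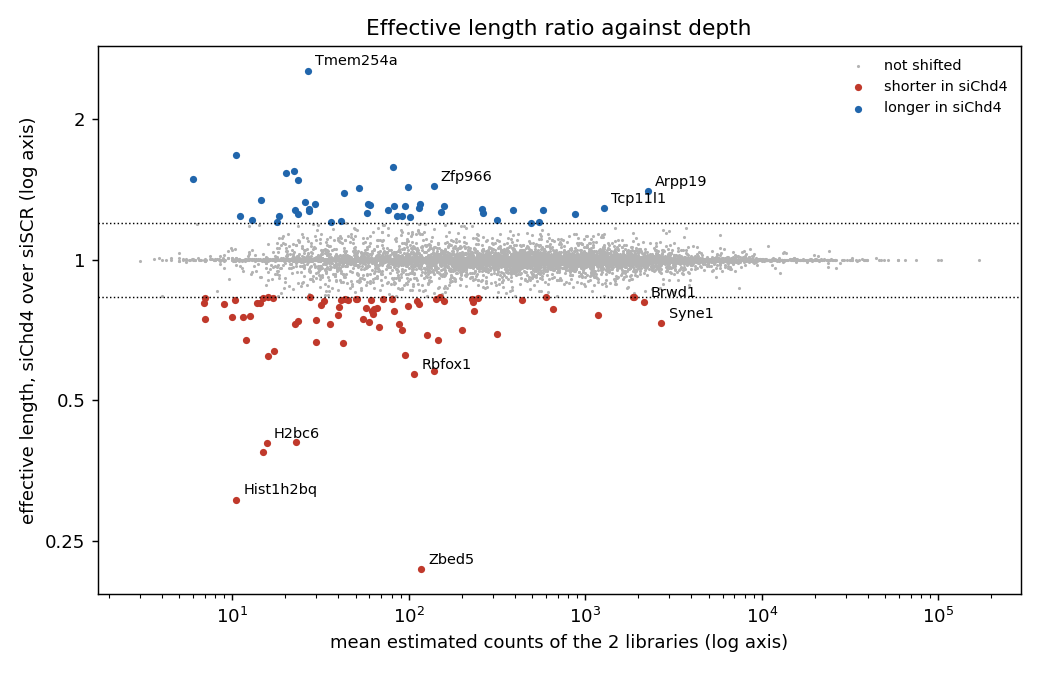
Ratio of effective lengths (siChd4 over siSCR, log2 axis) against mean estimated counts per library (log10 axis) for the 12872 genes; coloured points are the 76 genes shorter and the 47 genes longer in siChd4, and the lines mark 1.2 and 0.833. Most genes sit on a ratio of 1, and the share of genes past the lines is highest at low counts.

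Sequences of alternative starts are shown for 3 shifted genes, chosen after their values were seen because RefSeq gives them starts that lie far apart. Rbfox1, a splicing regulator of neurons and muscle, Lingo2, a leucine-rich repeat membrane protein of neurons, and Syne1, which encodes the giant nesprin-1 that links the nucleus to the cytoskeleton, all had a shorter effective length in siChd4. The 100 bases before each start are printed 5′ to 3′ on the gene's strand, with CG dinucleotides in capitals. They come from RefSeq on the GRCm38.p6 build, which is not the build of the expression table. The 2 Rbfox1 windows, chr16:5884693-5884792 and chr16:7069735-7069834 on the plus strand, lie 1185042 bases apart. The 2 Lingo2 windows, chr4:36718964-36719063 and chr4:35845205-35845304 on the minus strand, lie 873759 bases apart. The first and the last of the 3 Syne1 windows, chr10:5550693-5550792 and chr10:5069064-5069163 on the minus strand, lie 481629 bases apart, with chr10:5488315-5488414 between them.
Rbfox1 start 1: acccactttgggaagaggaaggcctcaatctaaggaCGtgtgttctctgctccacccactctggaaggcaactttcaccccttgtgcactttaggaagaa
Rbfox1 start 2: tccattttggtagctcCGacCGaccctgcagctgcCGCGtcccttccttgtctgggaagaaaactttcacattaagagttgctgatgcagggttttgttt
Lingo2 start 1: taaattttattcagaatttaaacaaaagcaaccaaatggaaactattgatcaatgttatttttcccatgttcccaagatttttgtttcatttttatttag
Lingo2 start 2: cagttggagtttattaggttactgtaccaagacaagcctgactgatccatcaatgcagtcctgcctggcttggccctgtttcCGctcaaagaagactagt
Syne1 start 1: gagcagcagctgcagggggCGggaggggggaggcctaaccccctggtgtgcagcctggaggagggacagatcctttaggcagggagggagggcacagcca
Syne1 start 2: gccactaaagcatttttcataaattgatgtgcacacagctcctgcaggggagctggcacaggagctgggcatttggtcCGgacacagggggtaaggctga
Syne1 start 3: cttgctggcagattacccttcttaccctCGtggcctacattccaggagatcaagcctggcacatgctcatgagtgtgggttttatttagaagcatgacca

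The windows held 1 and 4 CG in Rbfox1, 0 and 1 in Lingo2 and 1 each in Syne1. Over all 32851 RefSeq start windows of this length, the median was 3 CG, the middle 50% lay between 1 and 8, and 20.7% held none. These windows show where transcripts of the same gene can begin. The table gives values per gene and not per transcript, so which start was used in which library was not tested.

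Among the genes with a shorter length in siChd4, Zbed5 was furthest. It encodes a BED-type zinc finger protein that arose from a transposase. Zbed5 was at 47.22 TPM in siChd4, against 1.77 TPM in siSCR, with 201.91 and 32.93 estimated counts in siChd4 and siSCR. Its effective length was 514 bases in siChd4 and 2358 bases in siSCR, a ratio of 0.218. By TPM the gene was 26.7-fold higher in siChd4. By CPM, its count scaled to the library total, it was 6.05-fold higher (95% counting interval 4.17 to 9.02). Its annotated GENCODE transcripts are 730, 2478 and 2492 bases long. The siSCR length lay nearest the long ones. The siChd4 length of 514 bases lay below even the shortest, of 730 bases. It was further below than the median gap of 53.7 bases found in siChd4 for genes with a single annotated transcript. The siChd4 length thus fell outside the annotated range, and a switch between these transcripts was not tested. The gap between the TPM fold and the CPM fold comes from the difference in length between the libraries and from the scaling of TPM to a fixed total.

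Myl1 encodes an essential light chain of fast muscle myosin, and its classical isoforms start at alternative promoters. It had 17.19 counts in siChd4 and 12.73 in siSCR, and 2.11 TPM in siChd4, against 0.64 TPM in siSCR. The length was 979 bases in siChd4 and 2521 bases in siSCR, although the longest GENCODE transcript used here is 1082 bases. The 3.30-fold difference by TPM stands beside 1.33-fold by CPM (0.590 to 2.89), an interval that includes 1.

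Genes of histone H2B gave 2 of the 4 furthest shifts among genes shorter in siChd4. Most transcripts of such genes end at a conserved stem loop without a poly(A) tail, and longer, polyadenylated forms also exist. H2bc6 had 16.61 counts in siChd4 and 14.75 in siSCR, with 2 TPM in siChd4, against 0.76 TPM in siSCR. Its length was 998 bases in siChd4 and 2460 bases in siSCR. Hist1h2bq had 7.73 counts in siChd4 and 13.4 in siSCR, yet 1.46 TPM in siChd4, against 0.82 TPM in siSCR, with lengths of 636 bases in siChd4 and 2071 bases in siSCR. Its TPM fold was 1.78 and its CPM fold 0.570 (0.218 to 1.58), on opposite sides of 1, and 98.2% of its 31-base words occur in another gene, so its counts are uncertain. A stem of 6 base pairs that opens with GG, around a loop of 4 bases, was searched on the transcript strand of the annotated transcripts of both. Of 18247 GENCODE transcripts of 2000 to 3000 bases, 5.91% hold such a stem and 0.126% hold the letters found here, GGCTCTNNNNAGAGCC. In H2bc6, on chromosome 13, it is shown with 5 bases on each side and the stem in capitals.
H2bc6 stem loop: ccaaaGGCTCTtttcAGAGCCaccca

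This element lies at bases 604 to 619 of the 2480-base H2bc6 transcript and at bases 630 to 645 of the 2506-base transcript. The 2099-base transcript and the 3 transcripts of Hist1h2bq (381, 1254 and 2015 bases) hold no stem of this kind. The H2bc6 length in siChd4 thus lay between the place of the stem loop and the annotated transcript ends, and in siSCR close to the annotated full lengths.

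C1qtnf4, a secreted protein of the C1q and tumour necrosis factor related family, had 26.94 counts in siChd4 and 18.92 in siSCR. It was at 1.92 TPM in siChd4, against 0.58 TPM in siSCR, with a length of 1686 bases in siChd4 and 4135 bases in siSCR. Its single GENCODE transcript is 1290 bases long. Efcab1, a calcium-binding protein of motile cilia, had 27 counts in siChd4 and 5 in siSCR, with lengths of 1717 bases in siChd4 and 2755 bases in siSCR. Eva1b (25.56 counts in siChd4, 9.1 in siSCR), the red cell membrane gene Smim1 (61.69 and 23.22 counts in siChd4 and siSCR) and the hepatic lectin Asgr1 (29 and 30.81 counts in siChd4 and siSCR) complete the 12 furthest on this side, with Rbfox1, Lingo2 and Syn3. Efcab1, Eva1b and Smim1 were past 1.5-fold and higher in siChd4 on TPM + 1 and on CPM + 1, and Asgr1 was in neither.

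On the other side, Tmem254a, which encodes a small membrane protein, had the largest gain of length. It was at 0.84 TPM in siChd4, against 6.63 TPM in siSCR, with 13.54 counts in siChd4 and 40.03 in siSCR. Its length was 1937 bases in siChd4 and 765 bases in siSCR, a ratio of 2.53. The fold was 0.127 by TPM and 0.334 by CPM (0.174 to 0.649). Zfp966, a zinc finger gene, had 47.43 counts in siChd4 and 229.4 in siSCR, and 1.61 TPM in siChd4, against 11.79 TPM in siSCR. Its fold was 0.137 by TPM and 0.204 by CPM (0.145 to 0.278). Both share most of their sequence with near copies, which is taken up below.

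Ehbp1l1, which links membranes to the actin cytoskeleton, was at 7.58 TPM in siChd4, against 8.92 TPM in siSCR, but had 95.96 counts in siChd4 and 68.04 in siSCR. Its length was 1521 bases in siChd4 and 967 bases in siSCR. The fold was therefore 0.850 by TPM and 1.39 by CPM (1.01 to 1.93). Acer2, a ceramidase of the Golgi, was higher in siChd4 in both units, and by more on CPM. It was at 1.68 TPM in siChd4, against 1.2 TPM in siSCR (1.4-fold). Its counts were 31.37 in siChd4 and 13.75 in siSCR (2.25-fold by CPM, 1.13 to 4.45). Klk13, a kallikrein protease, had 19.99 counts in siChd4 and 1 in siSCR, and the chemokine Ccl27a had 10.6 and 1.42 counts in siChd4 and siSCR, so the siSCR length of each rests on very few reads. Of the 31-base words of Ccl27a, 81.4% also occur in another gene. Mlip, Dnase1l2, Gprin2, Hfm1 and Mill2 had length ratios between 1.39 and 1.53, and the CPM interval of all but Mill2 among these 5 included 1.

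**Figure D2:**
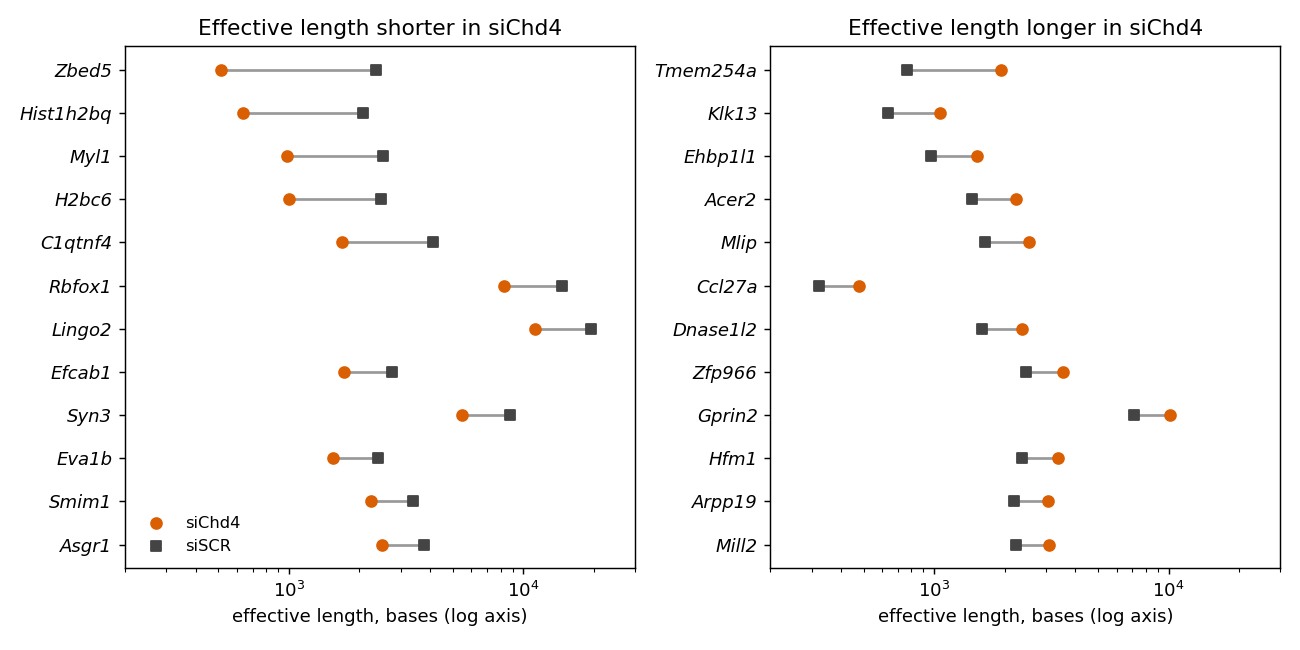
Effective length in bases (log axis) of the 12 genes with the furthest shift in each direction, siChd4 as circles and siSCR as squares; each gene is 1 value per library. The shifts range from Zbed5, 514 bases in siChd4 and 2358 bases in siSCR, to Tmem254a, 1937 bases in siChd4 and 765 bases in siSCR.

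Low counts were common among the shifted genes. The median mean count was 59.8 over the 123 genes, against 711 over the 12749 that were not shifted, and the median mean level was 2.15 TPM against 29.2 TPM. Of the genes with a mean of at most 20 counts, 26 of 266 (9.77%) were shifted, and of those above 1000 counts 7 of 5024 (0.139%). In 36 of the 123 genes at least 1 library had under 20 counts. Whether the shift of a low gene exceeds the error of the length estimate cannot be told with 1 library per group.

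By RefSeq, annotation with several transcripts went with a shift. By GENCODE the median number of transcripts was 5 in shifted genes and 5 in the others. The median ratio of the longest to the shortest GENCODE transcript was 4.98 in shifted genes, against 6.05 in the others. Only Loxl3 of the 122 shifted genes matched to RefSeq (0.820%) has a single RefSeq transcript, against 3104 of 12722 genes that were not shifted (24.4%). The share of shifted genes was 0.0322% among genes with 1 RefSeq transcript, 0.805% with 2, and 1.74% with more than 10. Above 200 counts, where fewer shifts occurred, it was 0.0440% (1 of 2271) with 1 transcript and 0.299% (23 of 7692) with several. A length that is an average over transcripts can only move where there are several, so this follows in part from how the measure is built. Loxl3, a lysyl oxidase that crosslinks collagen, has several transcripts in GENCODE, of 462 to 4098 bases, and had lengths of 3341 bases in siChd4 and 2612 bases in siSCR.

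Of the 101 shifted genes with a RefSeq start window, 32 (31.7%) have more than 1 start, against 2125 of 10221 (20.8%) of the genes not shifted. The gene span had a median of 24136 bases in shifted genes and 24584 bases in the others, and 20.5% and 14.7% of the shifted and other genes spanned over 100000 bases. Both effective lengths lay within the range of the GENCODE transcripts, with 100 bases allowed below the shortest, for 57 of 118 shifted genes (48.3%) and for 10107 of 12536 others (80.6%). These annotations are of an older build than the table, and the part of that in the gap was not tested.

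**Figure D3:**
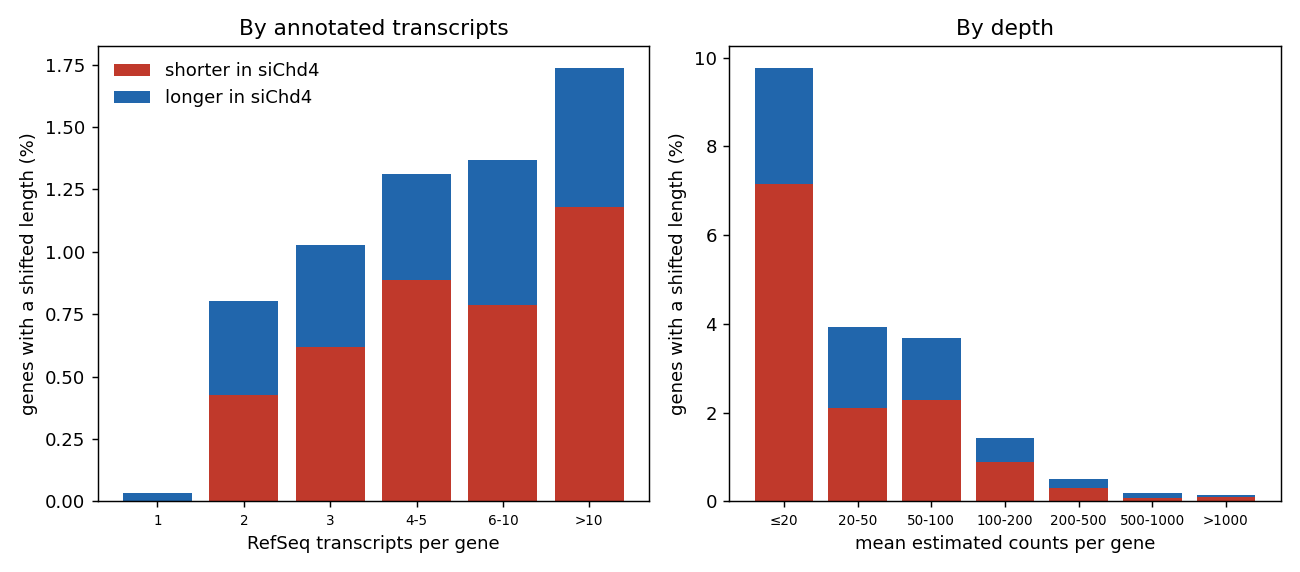
Percent of genes shifted (bars from 0), by mean estimated counts and by number of RefSeq transcripts, split by direction of the length in siChd4. The share falls from 9.77% at up to 20 counts to 0.139% above 1000 counts, and is lowest (0.0322%) for genes with 1 transcript.

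The 31 shifted genes with at least 100 counts in each library, a group chosen after the values were seen, rest on the most reads; 20 were shorter and 11 longer in siChd4. The most abundant was Arpp19, an inhibitor of protein phosphatase PP2A that acts at mitotic entry. It was at 92.95 TPM in siChd4, against 125.12 TPM in siSCR, while its counts were 2363 in siChd4 and 2155 in siSCR. Its length was 3055 bases in siChd4 and 2184 bases in siSCR, within annotated transcripts of 216 to 4046 bases. The fold was 0.743 by TPM and 1.08 by CPM (1.02 to 1.15), on opposite sides of 1.

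Syne1 was at 30.27 TPM in siChd4, against 25.48 TPM in siSCR, with 2585 counts in siChd4 and 2823 in siSCR. Its length was 10261 bases in siChd4 and 14043 bases in siSCR, in a gene with annotated transcripts from 2726 to 27908 bases. The fold was 1.19 by TPM and 0.904 by CPM (0.857 to 0.954). Syne1 is thus slightly higher or slightly lower in siChd4 depending on the unit, and was not past 1.5-fold in either.

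Lingo2, Xkr6, Hecw2 and Trp53rkb of this group had larger shifts than Syne1. Their length ratios were 0.578, 0.674, 0.692 and 0.707, against 0.731 for Syne1. The well counted genes named next had smaller shifts. Brwd1, a bromodomain protein, had 2057 counts in siChd4 and 2228 in siSCR and lengths of 4605 bases in siChd4 and 5672 bases in siSCR. Nbea, the neuronal trafficking protein neurobeachin, had 1953 counts in siChd4 and 1825 in siSCR and lengths of 7455 bases in siChd4 and 8969 bases in siSCR. For the exporter Abcc5 the lengths were 5625 bases in siChd4 and 6775 bases in siSCR, the latter above its longest GENCODE transcript of 5811 bases. Msantd2, with a DNA-binding domain of the Myb/SANT type, had 3765 bases in siChd4 and 4937 bases in siSCR. Both exceed its longest GENCODE transcript, of 2291 bases. Pigk, a subunit of the GPI transamidase, and the tRNA ligase complex gene Zbtb8os had longer lengths in siChd4, with ratios of 1.25 and 1.21.

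By role, a grouping made after the values were seen, 14 of the 123 genes are neuronal or synaptic, and 10 of these were shorter in siChd4. Rab3c, a small GTPase of synaptic vesicles, was at 18.37 TPM in siChd4, against 4.42 TPM in siSCR, with 1012 counts in siChd4 and 295 in siSCR. Its fold was 4.16 by TPM and 3.39 by CPM (2.97 to 3.87), and its length was 6620 bases in siChd4 and 8458 bases in siSCR. Rbfox1 was at 1.82 TPM in siChd4, against 0.78 TPM in siSCR, with 125.82 counts in siChd4 and 89.78 in siSCR. Its lengths of 8307 bases in siChd4 and 14589 bases in siSCR both exceed the longest GENCODE transcript used here, of 3061 bases. The fold was 2.33 by TPM and 1.38 by CPM (1.05 to 1.83).

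Syn3, a synapsin, was at 2.60 TPM in siChd4, against 1.04 TPM in siSCR, and 1.62-fold higher by CPM (1.21 to 2.22). Lingo2 was at 1.63 TPM in siChd4, against 0.81 TPM in siSCR. Its lengths of 11244 bases in siChd4 and 19438 bases in siSCR both exceed its longest GENCODE transcript, of 3808 bases. The CPM fold of Lingo2, 1.21, had an interval that includes 1 (0.955 to 1.56). Fam155a, an auxiliary subunit of the sodium leak channel, and the GTPase Rab33a were past 1.5-fold in both units. Kcnk10, a two-pore potassium channel, was at 4.27 TPM in siChd4, against 2.11 TPM in siSCR and its length was longer in siChd4. Of the 14, 6 were higher and none lower past 1.5-fold on TPM + 1, and likewise 6 and none on CPM + 1. Over all 12872 genes the shares were 6.7% higher and 4.46% lower on TPM + 1, and 7.44% and 3.43% on CPM + 1. These shares are the background for every role, and nothing is read from the counts, since the genes were chosen on the same values. The genes past the limit in one unit alone were Rbfox1 and Syn3 on TPM + 1 and the synaptotagmin Syt6 and the adhesion molecule Cntn4 on CPM + 1. Neuron markers were also higher in siChd4, as given above, and their part here was not tested.

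Genes of immune, secreted and receptor proteins numbered 27, with 15 shorter and 12 longer. On TPM + 1, 10 were higher and 2 lower in siChd4, and on CPM + 1 4 higher and 1 lower, beside the background of 6.7% and 4.46% on TPM + 1 and 7.44% and 3.43% on CPM + 1. Cxcl12, a chemokine that guides migrating neural cells, was at 3.85 TPM in siChd4, against 1.91 TPM in siSCR (2.02-fold) and 1.53-fold by CPM (1.12 to 2.10). The lipoprotein gene Apoc1 had 15 counts in siChd4 and 5 in siSCR. Ghr, the growth hormone receptor, had 274.9 counts in siChd4 and 187.86 in siSCR, and was 1.71-fold higher by TPM and 1.44-fold by CPM (1.195 to 1.75). Il3ra, a cytokine receptor chain, had 10 counts in siChd4 and 18.97 in siSCR, and Trim7, a ubiquitin ligase, had 69.01 counts in siChd4 and 113.31 in siSCR.

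Of 14 genes of nuclear, DNA and RNA proteins, 11 were shorter and 3 longer in siChd4, and the 3 were Zfp966, Zfp825 and Zbtb8os. Zbed5, H2bc6 and Duxbl2 were higher past 1.5-fold on TPM + 1 and Zfp966 was lower. On CPM + 1 Zbed5 and Duxbl2 were higher and Zfp966 lower, while H2bc6 had a CPM fold of 1.11 (0.526 to 2.41). Of 7 muscle and cytoskeleton genes, 4 were shorter and 3 longer, and Myl1 alone was past the limit by TPM, with none by CPM. The 27 metabolic, transport and signalling genes split into 14 shorter and 13 longer, and 2 of them, the death domain adaptor Cradd and the hydrolase Hint3, were lower past 1.5-fold on TPM + 1. On CPM + 1 Cradd was lower and Acer2 higher past it, and Hint3, with a CPM fold of 0.716 (0.636 to 0.806), was not. Of 9 germ cell and cilia genes 5 were shorter, and Efcab1 was past the limit in both units. The other 25 genes, many of them uncharacterised, had 17 shorter and 8 longer lengths.

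Among regulators that could set isoforms, drawn from a list of 62 splicing regulators that met the limits on level, Rbfox1 was the only shifted gene. On TPM + 1, 6 of the 62 were higher and 4 lower past 1.5-fold, near the background shares of 6.7% and 4.46%, with a median log2 ratio of -0.15, against -0.04 over all 12872 genes. Higher past 1.5-fold were Celf3, Celf5, Celf6, Khdrbs3, Rbfox1 and Srrm3, and lower were Khdrbs1, Mbnl1, Ptbp2 and Ptbp3. On CPM + 1, Rbfox1 and Khdrbs1 were not past 1.5-fold. That left 5 higher and 3 lower, beside background shares of 7.44% and 3.43%. Not past 1.5-fold in either unit were Ptbp1 (275 TPM in siChd4, against 298 TPM in siSCR), Srrm4 (3.05 against 2.41) and Elavl2 (9.41 against 12.18). The regulators named next are single values from this list, and whether any regulator set the lengths was not tested. Celf3, of neurons, was at 27.4 TPM in siChd4, against 5.54 TPM in siSCR, and Srrm3, which promotes neuronal microexons, was at 4.88 TPM in siChd4, against 1.62 TPM in siSCR. Ptbp2, a repressor of neuronal exons, was at 64.8 TPM in siChd4, against 107 TPM in siSCR, and Mbnl1 at 45.1 TPM in siChd4, against 69.9 TPM in siSCR. None of 29 cleavage and polyadenylation factors was shifted or past 1.5-fold. Of 85 genes with well known neural or muscle isoforms, Myl1 was the only shifted one (1.18%), beside 123 of 12872 genes in all. Of 428 genes with C2H2 zinc finger symbols 5 were shifted (1.17%), Zbtb8os among them although it encodes no zinc finger, of 66 cytoskeleton and motor genes 2 (Myl1 and the atrial light chain Myl4), and of 473 predicted genes with provisional symbols 13 (2.75%). No member of the lists of NuRD, Seh1 and nuclear pore genes (25 genes), of chromatin modifiers (71) or of ribosomal proteins (53) was shifted.

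The choice of unit changed which genes were called different. On TPM + 1, 24 of the 123 genes were higher past 1.5-fold in siChd4 and 10 lower, where the background over 12872 genes was 6.7% higher and 4.46% lower. On CPM + 1 the numbers were 17 and 7, with a background of 7.44% and 3.43%. Because the rule used the same values, nothing is read from these counts. In all, 18 genes were past the limit in both units, 16 on TPM + 1 alone and 6 on CPM + 1 alone. For the 76 shorter genes the median log2 ratio was 0.30 on TPM + 1 and 0.05 on CPM + 1. For the 47 longer genes it was -0.25 on TPM + 1 and 0.02 on CPM + 1.

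**Figure D4:**
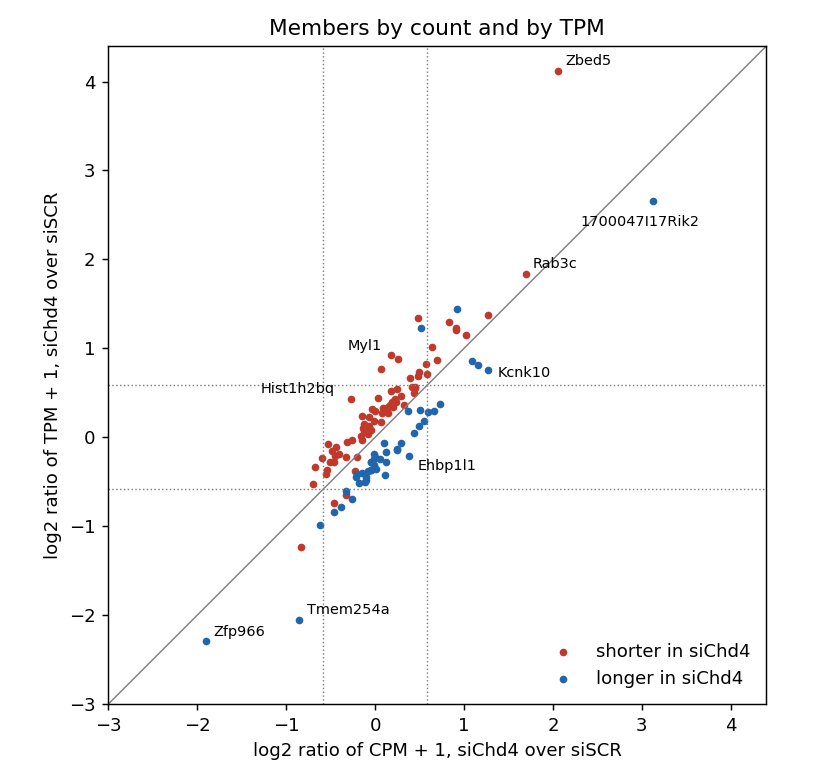
Log2 ratio of TPM + 1 (vertical) against log2 ratio of CPM + 1 (horizontal), both siChd4 over siSCR, for the 123 genes; dotted lines mark 1.5-fold and the diagonal equal values. The 76 genes shorter in siChd4 lie above the diagonal and the 47 longer ones below it, apart from low genes pulled by the added 1.

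In 27 of the 123 genes (22.0%) the TPM fold and the CPM fold lay on opposite sides of 1, against a background of 7.89% over all 12872 genes. The rule chose genes whose TPM and count ratios differ, so a share above the background is built in and nothing is read from it. The direction of such a gene depends on the length it was divided by and on the scaling of each unit. With both folds past 1.1 in opposite directions there were 7 genes, namely Syne1, Ncoa7 and Hist1h2bq among the shorter, and Ehbp1l1, Hfm1, Loxl3 and Garnl3 among the longer. Garnl3 falls outside the naming rule and was named after its values were seen. Ncoa7, a coactivator of nuclear receptors, was at 6.79 TPM in siChd4, against 6.03 TPM in siSCR with 223.65 counts in siChd4 and 242.92 in siSCR. Of these 7, Hist1h2bq was past 1.5-fold in opposite directions as a plain fold of TPM and of CPM, at few counts, and the folds of the other 6 lay under 1.5 in both.

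Some shifts stand in genes with near copies, where reads that fit several genes are split by the estimate. Of the 118 shifted genes with a GENCODE transcript, 9 (7.63%) share over 50% of their 31-base words with another gene, against 408 of 12536 others (3.25%). Tmem254a had 13.54 counts in siChd4 and 40.03 in siSCR, its copy Tmem254b 348.08 and 451.39, and Tmem254c 45.74 in siChd4 and none in siSCR. Summed over the 3 copies, they had 407.36 counts in siChd4 and 491.42 in siSCR, a CPM ratio of 0.818. Zfp966 and its copy Zfp967, which had 115.82 counts in siChd4 and 0 in siSCR, summed to 163.25 counts in siChd4 and 229.4 in siSCR, a ratio of 0.703. The difference of Zfp966 alone, 0.204 by CPM, is thus larger than that of the pair. Duxbl2 and 2 copies summed to a ratio of 1.35, and Cldn34c2, of whose words 96.9% are shared, summed to 0.892 with 2 related genes. Related genes that share less sequence are Trp53rkb (16.8% of its words shared), which summed with Trp53rka to 1.12, and Mthfsl (11.0%), which summed with Mthfs to 1.04.

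**Figure D5:**
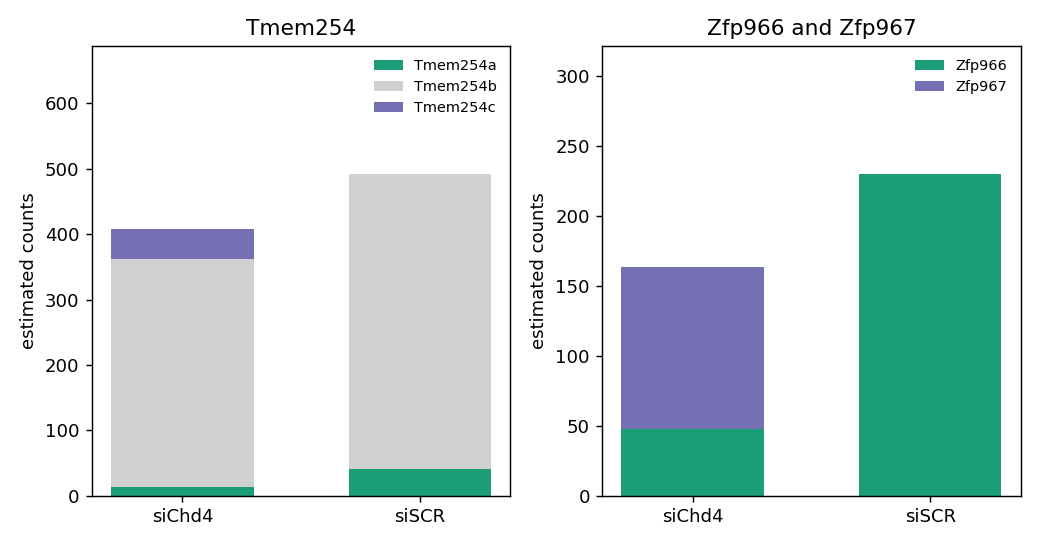
Estimated counts of shifted genes and their near copies, siChd4 beside siSCR, as bars from 0. Tmem254c and Zfp967 have counts in siChd4 and 0 in siSCR, and the sums of each family differ less between the libraries than these single copies do.

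Next to the limit, Mthfsl (length ratio 0.833, shift 1.2004) was just inside on the shorter side and 2610042L04Rik (0.832) next, with Zzef1 (shift 1.1997) and Borcs8 (1.1996) just outside. On the longer side Klhl32 (ratio 1.20003) and Tcam1 (1.2011) were just inside, and Zfp54 (1.197) and Palb2 (1.196) just outside. Over the interval that the deposited decimals allow, 70 of the 76 shorter and 44 of the 47 longer genes stayed past the limit. A further 10 genes reached the limit on mean TPM but had a value at 0 in 1 library, so no shift could be computed. They include Cers1, a ceramide synthase, listed at 0 TPM in siChd4, against 12.02 TPM in siSCR, the histone gene H3c3, listed at 0 TPM in siChd4, against 2.15 TPM in siSCR, and Entpd4, at 2.31 TPM in siChd4, against listed at 0 in siSCR.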

How the data were processed

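Total RNA of the 2 libraries was sequenced after standard Illumina library preparation, per the labels' protocols. The authors deposited 1 table of 17359 genes. Per the file headers it holds FPKM and TPM values and read counts. The deposited read counts must be estimated counts: 17.8% were whole in siChd4 and 16.0% in siSCR. TPM as deposited by the authors sums to 1000000 per library, and FPKM is proportional to it within each library. Per the submitters' processing notes, mm39 was the build. For the aligner, counting tool, annotation, strand use and duplicate removal, the entry is: not given in the sources used here.

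Effective length was CPM divided by FPKM, which gives kilobases, and was converted to bases. FPKM was taken from TPM by the library's constant factor. CPM used table totals. Ratios were log2((value + 1) siChd4 over siSCR). A gene was called past 1.5-fold, and no test was run because each group held 1 library. Exact Clopper-Pearson 95% intervals of the count ratio, on counts rounded to whole numbers, cover counting error only. Without molecular identifiers, reads are not independent molecules. Near copies were measured as 31-base words shared between GENCODE M21 transcripts. Gene IDs matched a GENCODE transcript for 16779 genes and RefSeq for 17306. These annotations are of GRCm38. Lengths, transcript numbers, numbers of starts, gene spans and sequences were taken from them by gene. Positions and distances of starts are on GRCm38.p6 and were not carried over to mm39. Python 3.11.15, pandas 2.3.3, scipy 1.17.1 and edgeR 4.0.16 (for TMM factors only) were used, and the scripts were tested on simulated data.

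Genes were named as the 12 furthest shifts per direction that rounding keeps, the 8 most abundant, those whose call or side depends on the unit (at most 20), up to 4 per gene list and those next to the limit. Symbols of the Gm, Rik and LOC kinds were left out except where counted or next to the limit. The text also names genes outside this rule as examples of a role, list or shift, chosen after their values were seen. Among them are Rab3c, Ghr, Kcnk10, Fam155a, Rab33a, Cradd, Garnl3, Xkr6 and Hecw2. The members and lists were chosen with earlier results of these data known. Roles, families of copies and the group with at least 100 counts were set after values were seen. Alternatives were other limits, FPKM, rounding, minimum counts, pseudocounts, TMM and median-of-ratios scaling.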

Additional observations from a re-analysis of the deposited data

How the results depend on the processing

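Counts of shifted genes depend on the limits. With a shift limit of 1.1 they were 277 shorter and 189 longer in siChd4, with 1.5 they were 11 and 5, at a mean of 5 TPM or more 19 and 15, and with no limit on TPM 257 and 231, against 76 and 47. FPKM gave 77 and 48, the rounding interval 70 and 44, and at least 20 counts in each library 52 and 35. Past 1.5-fold, genes lower in siChd4 numbered 10 on TPM + 1, 5 on FPKM + 1 and 19 by TPM with no pseudocount, an alternative added after the data were seen. With no pseudocount the counts by CPM were 28 higher and 19 lower, against 17 and 7. TMM and median-of-ratios scaling left 17 and 7, and shifted all log2 ratios by 0.02 and 0.01 on CPM. Opposite sides of 1 were found for 27 genes, and for 26 under each scaling. For the 52 named genes, 24 of the 156 alternative log2 ratios moved by more than counting error, 20 of them on CPM + 1. Of 18 named genes past 1.5-fold on TPM + 1, 11 were under it on CPM + 1 (Apoc1, C1qtnf4, Ccl27a, Cxcl12, H2bc6, Hint3, Il3ra, Myl1, Palb2, Rbfox1 and Syn3), and 8 of these, all but Apoc1, Ccl27a and Hint3, on FPKM + 1 too. No such call changed sign, and a pseudocount of 0.1 ended none. Among the 52, the sign differed between TPM + 1 and CPM + 1 for 15 genes, Arpp19, Syne1, Ehbp1l1 and Hist1h2bq among them. No paired analysis was possible because there was 1 library of each group, and no library could be left out. The error of a length was not measured at any depth, and 36 of the 123 genes had under 20 counts in a library.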
